A study of Mus musculus with 194 samples.

Results

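The expression of Egr2 was followed in 5 brain structures of mice exposed to cocaine. Egr2 is 1 of 19363 genes in a table of 3′ RNA-seq counts, and it was taken by its symbol. A sample is 1 structure of 1 mouse, and 48 mice gave 166 samples, of which 28 had libraries in 2 sequencing runs. The structures were the limbic cortex (LCtx, medial prefrontal and cingulate cortex), the nucleus accumbens (NAc), the dorsal striatum (DS), the amygdala (Amy) and the lateral hypothalamus (LH).

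All groups were male C57BL/6OLAHSD mice of 6 to 7 weeks on arrival, which had received saline on 3 days of habituation. Cocaine was injected intraperitoneally at 20 mg/kg. Acute mice received 1 dose, repeated mice (Chronic in the labels) 1 dose a day for 5 days, and challenge mice 1 further dose after the repeated schedule and 21 days without drug. Tissue was taken at 1, 2 or 4 hr after the last dose. The 0 hr group of acute cocaine was naive to the drug, that of repeated cocaine had received the most recent dose a day earlier, and the 0 hr mice of challenge were abstinent. These 0 hr mice came straight from the home cage and received no injection on that day. A change from 0 to 1 hr therefore covers cocaine together with the injection and the handling, which cannot be told apart here.

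Egr2, also called Krox20, is a zinc finger transcription factor of the early growth response (EGR) family. In neurons the EGR genes are immediate-early genes, transcribed within minutes of activity without the need for new protein, through kinase cascades that act on serum response factor (SRF) and CREB bound near their start sites. The Nab proteins bind EGR factors and mostly repress them. Outside the adult forebrain, Egr2 is best known for patterning the hindbrain and for switching on myelin genes in Schwann cells.

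Egr2 (ENSMUSG00000037868.15) lies on chromosome 10 of GRCm38, from 67535475 to 67542188 on the plus strand. Its transcript Egr2-201 has exons at 67537869 to 67538389 and at 67539745 to 67542188. No other annotated gene overlapped it, and the nearest was Ado, on the other strand, from 67544511 to 67548955. The 250 bases before the start of Egr2-201 are shown together with those before the start of Egr4, the EGR gene closest to Egr2 in its time course in the DS. The sequences are RefSeq promoter windows on GRCm38.p6, written 5′ to 3′ on the strand of the gene. Capitals mark the CArG box, the element that SRF binds, and TGACG on either strand (CGTCA on the other), the core of the CREB site.
Egr2, chr10:67537619-67537868, plus strand: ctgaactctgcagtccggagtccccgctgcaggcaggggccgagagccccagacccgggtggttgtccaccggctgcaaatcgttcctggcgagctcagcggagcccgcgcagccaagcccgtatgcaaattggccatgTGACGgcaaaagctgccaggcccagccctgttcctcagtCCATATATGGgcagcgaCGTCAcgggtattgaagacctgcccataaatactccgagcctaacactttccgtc
Egr4, chr6:85513590-85513839, minus strand: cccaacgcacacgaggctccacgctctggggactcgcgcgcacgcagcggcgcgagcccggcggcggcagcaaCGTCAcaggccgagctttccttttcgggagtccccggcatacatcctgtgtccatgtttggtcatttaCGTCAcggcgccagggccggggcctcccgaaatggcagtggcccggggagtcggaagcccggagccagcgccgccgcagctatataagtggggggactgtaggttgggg

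The Egr2 window shown held 1 CArG box, at -72 to -63 from the start, between copies of TGACG at -111 to -107 and at -55 to -51. The Egr4 window held 2 copies of TGACG, at -177 to -173 and at -109 to -105, and no CArG box. RefSeq gives 5 windows for Egr2, of which the one from 67535249 to 67535498 held neither motif and the one from 67537316 to 67537565 held another CArG box and no TGACG. The other two overlap the window shown and hold the same matches. Among 32851 promoter windows of this length, 1.47% held a CArG box and 17.8% held TGACG, which is part of the full CREB site TGACGTCA (1.55% of windows). Neither TGACGTCA nor the EGR site GCGTGGGCG (0.536% of windows) was present in either sequence. Of 8 genes looked up by symbol, 5 were matched (Egr2, Egr4, Nab2, Fos and Junb), and the others were Egr1, Egr3 and Arc. Matches of letters are a description of these windows and not of binding.

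Egr2 was a scarce transcript. It took 14304 counts in all, with at least 1 count in every library. Library totals ran from 1193306 to 10367769 with a median of 3296647.5. In the libraries of the main analysis, which leave out second libraries of a sample except in the LH, the DS held 73.0% of the Egr2 counts and 30.1% of all counts. The LCtx held 11.6% of the Egr2 counts, the NAc 8.58%, the Amy 5.99% and the LH 0.821%. In the DS at 1 hr of acute cocaine, the mean share of Egr2 in all counts was 0.0172%, against 0.00175% at 0 hr.

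The dissections of the DS, NAc, LH and LCtx were checked against marker genes, which each of them expressed. Genes of striatal projection neurons summed to 12978 to 17297 CPM (counts scaled to the total of the library) in the DS and 6845 to 10781 CPM in the NAc, Hcrt and Pmch of the lateral hypothalamus to 9139 to 15565 CPM in the LH, and genes of cortical excitatory neurons to 969 to 1896 CPM in the LCtx. The same striatal list served for the DS and the NAc. The cortical list also summed to 31.1 to 610 CPM in the NAc, against 6.10 to 73.5 CPM in the DS. In the Amy it summed to 527 to 1390 CPM, so it does not separate the LCtx from the Amy. No list of amygdala genes was used, so the label of the Amy was not checked, and Hcrt and Pmch summed to 620 to 1527 CPM there. In the DS, each of 9 marker lists (neurons of 3 regions, Schwann cells, microglia, T cells, endothelium, choroid plexus and blood) had overlapping ranges at 0 and 1 hr in every experience. In these bulk samples, fewer cells of a type and less RNA per cell cannot be told apart.

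After a first dose of cocaine, Egr2 rose 10.03-fold in the DS within 1 hr. The level is given as CPM of the library after TMM scaling, per mouse. The 4 naive mice had 7.33, 19.1, 23.4 and 23.8 CPM (mean 18.4 ± 7.67, SD). At 1 hr the mice had 157, 184, 190 and 207 CPM (184 ± 20.9, SD, n = 4), so that the lowest exposed mouse lay far above the highest naive mouse. The log2 fold change was 3.36 (SE 0.25, edgeR adjusted p = 3.59e-15). Egr2 had the largest fold change of the 90 genes that rose in this comparison, which were 0.697% of the 12918 genes tested.

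By 2 hr the DS of acute mice had mostly returned. The levels were 15.6, 32.6, 41.3 and 41.7 CPM (32.8 ± 12.2, SD, n = 4), and those at 4 hr were 10.97, 15.6, 21.4 and 30.9 CPM (19.7 ± 8.61, SD, n = 4). Both sets overlapped the naive mice. From 1 to 2 hr the log2 level fell by 2.47 (edgeR adjusted p = 1.90e-12), in a comparison in which 0.534% of genes fell. The difference from 0 hr was 0.89 at 2 hr (edgeR adjusted p = 0.10, 0.619% of genes rose) and 0.12 at 4 hr (adjusted p = 0.924, 0.457% of genes rose). Without replicate 1 at 2 hr, the lowest mouse, the 2 hr difference was 1.10 and passed the threshold (adjusted p = 0.0194).

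After repeated cocaine, Egr2 rose 7.52-fold in the DS. The 0 hr mice had 8.37, 9.20, 11.3 and 12.5 CPM (10.4 ± 1.91, SD, n = 4), the narrowest range of the 3 experiences. The 1 hr mice had 53.3, 71.9, 90.2 and 96.1 CPM (77.9 ± 19.4, SD, n = 4), above every 0 hr mouse. On the log2 scale the rise was 2.91 (SE 0.28, edgeR adjusted p = 1.58e-11), the second largest of 31 genes that rose, which were 0.240% of genes tested.

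At 2 hr of repeated cocaine, 1 of 5 mice had 11.3 CPM, within the 0 hr range, while the others had 23.6, 31.0, 31.8 and 31.9 CPM (25.9 ± 8.89, SD, n = 5). At 4 hr the levels were 9.16, 11.1, 13.8 and 14.5 CPM (12.1 ± 2.45, SD, n = 4). The fall from 1 to 2 hr was by 1.59 on the log2 scale (edgeR adjusted p = 4.94e-06, 0.147% of genes fell). The 2 hr level was above 0 hr by 1.32 (edgeR adjusted p = 0.0600, 0.0774% of genes rose). With the replicate number as a block this difference was 1.51 (adjusted p = 0.00472), and without replicate 5, the mouse at 11.3 CPM, it was 1.51 (adjusted p = 0.00463). The replicate numbers match the experiment codes of the mice at 0 hr but not at 2 hr, so the block mixes those codes. At 4 hr the difference was 0.20 (adjusted p = 0.998, and 0% of genes rose).

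After challenge, Egr2 rose 4.44-fold in the DS. The abstinent mice had 14.8, 33.8 and 37.6 CPM (28.7 ± 12.2, SD, n = 3), and the 1 hr mice 104, 120, 139 and 147 CPM (128 ± 19.2, SD, n = 4). The ranges were again far apart. The fitted log2 change was 2.14 (SE 0.25, edgeR adjusted p = 1.06e-08), the 6th largest of 45 genes that rose, which were 0.348% of genes tested.

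The 2 hr mice of challenge had 40.6, 51.3, 61.6 and 66.5 CPM (55.0 ± 11.5, SD, n = 4), all above the abstinent mice. The 4 hr mice had 17.5, 23.4, 25.4 and 30.1 CPM (24.1 ± 5.21, SD, n = 4), within the abstinent range. From 1 to 2 hr Egr2 fell by 1.20 on the log2 scale (edgeR adjusted p = 0.000640, 0.101% of genes fell), a call that was lost with DESeq2 (adjusted p = 0.0531). The difference from 0 hr was 0.95 at 2 hr (edgeR adjusted p = 0.111, 0.224% of genes rose) and -0.32 at 4 hr (adjusted p = 1.0, 0.0155% of genes rose).

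**Figure D1:**
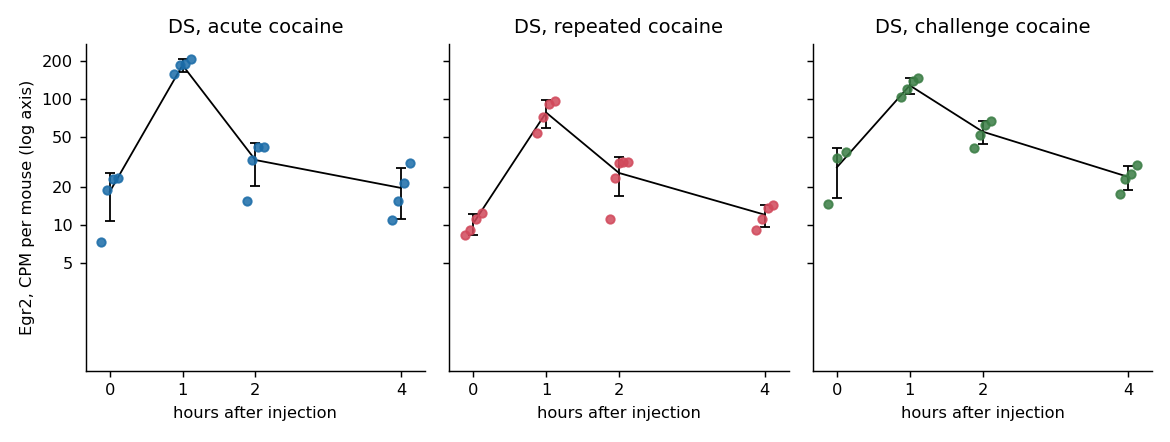
Egr2 in the DS of each mouse (points, CPM on a log axis) against hours after injection, with 1 panel for each experience and the mean and SD over mice as a black line. The 1 hr mice sit between 53.3 and 207 CPM, above every mouse of the other times in their panel, and by 4 hr the levels are within or close to the 0 hr range.

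Expressed in CPM, most of the rise in the DS was gone 1 hr after the 1 hr sample. Of the mean rise from 0 to 1 hr, 8.68% was left at 2 hr after acute cocaine, 23.1% after repeated cocaine and 26.6% after challenge. Leaving out each mouse in turn gave 6.61% to 12.1%, 20.6% to 28.5% and 20.99% to 31.4%. At 4 hr the shares left were 0.805%, 2.62% and -4.68%, the last below 0 because the 4 hr mean lay under the abstinent mean. Without 1 mouse these were -1.45% to 2.56%, 1.47% to 4.09% and -12.6% to -0.175%, so that the acute share changed sign. Each time point is a different set of mice, so these are ratios of group means and not the decay within an animal. No test of the difference in decay was made.

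Across all 4 times, Egr2 changed in the DS in each experience. The edgeR F test over time gave adjusted p = 3.5e-20 for acute (2.70% of genes changed), 1.2e-13 for repeated (0.488%) and 7.4e-13 for challenge (0.673%).

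The 1 hr levels of the 3 experiences did not overlap in the DS. Acute mice (157 to 207 CPM) lay above challenge mice (104 to 147 CPM), and these lay above repeated mice (53.3 to 96.1 CPM). The labels mark mice by an experiment code, called cohort here, and no code was shared between experiences, so the cohort and the experience cannot be told apart. The repeated mice came from 2 cohorts, with 53.3 and 71.9 CPM in 1 and 90.2 and 96.1 CPM in the other. The fold change is relative to each experience's own 0 hr mice. It was 0.45 lower on the log2 scale after repeated than after acute cocaine (SE 0.41, edgeR adjusted p = 0.996), 1.21 lower after challenge than after acute (SE 0.36, unadjusted p = 0.00138, adjusted p = 0.492) and 0.76 lower after challenge than after repeated (SE 0.38, adjusted p = 1.0). None of these differences passed the threshold. Without 1 mouse the difference of repeated from acute cocaine was -0.64 to -0.16. In each of these comparisons 0% of genes did, with 649, 676 and 435 genes at an unadjusted p under 0.05, and DESeq2 called 1, 0 and 0 genes.

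The acute libraries of the DS were sequenced in another run than the repeated and challenge libraries. A further run held 2 mice of every time point from all 3 experiences, as second libraries of the same samples. Within that run the 1 hr levels were 188 and 191 CPM after acute, 96.8 and 116 CPM after challenge and 68.6 and 82.5 CPM after repeated cocaine, the same order without overlap. The difference in fold change from acute was -1.46 for challenge (SE 0.45, edgeR adjusted p = 0.995) and -0.36 for repeated cocaine (SE 0.51, adjusted p = 1.0) there. The 1 hr rise in that run was 3.29 (acute), 2.93 (repeated) and 1.83 (challenge), each past the threshold (adjusted p at most 0.000850).

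The paired libraries also show how well a single Egr2 value repeats. Over the 24 DS samples sequenced in both runs, the log2 ratio of the main run to the run with all 3 experiences had a median of 0.16, and its size had a median of 0.35 and reached 0.96. After acute cocaine the median ratio was -0.03 and 6 of 8 samples lay within 2 standard errors of counting. After repeated cocaine it was 0.17, with 7 of 8 within that limit. After challenge it was 0.44, with 3 of 8, so that challenge levels were higher in the main run.

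**Figure D2:**
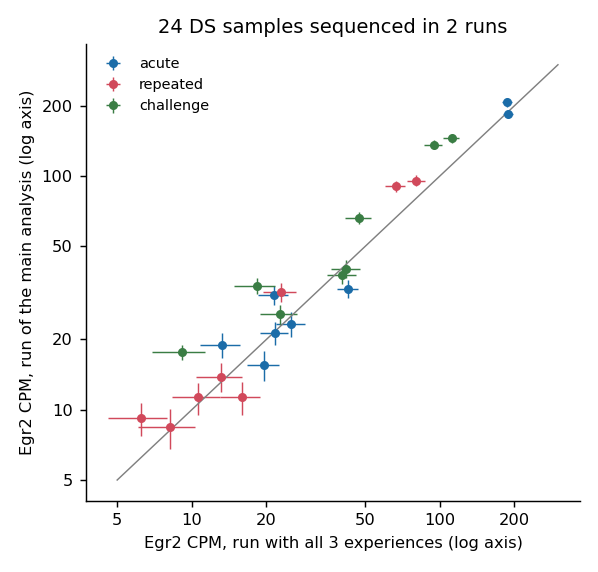
Egr2 in the 24 DS samples with libraries in both runs, as CPM in the run that held all 3 experiences (x, log axis) against CPM in the run of the main analysis (y, log axis), with 1 point per sample coloured by experience and a line of equality. Acute points lie on both sides of the line, and repeated and challenge points lie mainly above it (median log2 ratios of -0.03, 0.17 and 0.44).

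In the NAc, Egr2 rose after acute cocaine. Naive mice had 3.73, 5.12, 5.57 and 6.80 CPM, and acute mice at 1 hr had 16.01, 17.1, 19.96 and 24.4 CPM, a 3.65-fold ratio of means with no overlap. The log2 fold change was 1.86 (SE 0.26, edgeR adjusted p = 2.28e-05), the largest of 13 genes that rose, which were 0.10% of genes tested. By 2 hr the mice had 4.06, 4.57 and 6.34 CPM and by 4 hr 2.93, 3.69 and 4.68 CPM, so that no part of the mean rise was left at 2 hr.

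Repeated cocaine in the NAc was measured in 2 mice per time. They had 1.54 and 3.27 CPM at 0 hr and 6.52 and 15.8 CPM at 1 hr. Its log2 fold change was 2.17 (SE 0.45, edgeR adjusted p = 0.0282), the largest of 7 genes that rose (0.0540% of genes). Of the 4 mice, this call was kept only when 1 hr replicate 2 was left out (2.68, adjusted p = 0.00417), and it was lost without 0 hr replicate 1 (2.80, adjusted p = 0.186), 0 hr replicate 2 (1.74, adjusted p = 0.699) or 1 hr replicate 1 (1.41, adjusted p = 1.0). The summed Schwann cell markers were 10.5 to 16.9 CPM at 0 hr and 5.96 to 8.15 CPM at 1 hr, and their part in the result was not tested.

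After challenge the NAc had 6.53 and 9.66 CPM at 0 hr and 15.4, 18.1, 18.1 and 19.9 CPM at 1 hr. The ranges did not overlap, yet the log2 fold change of 1.19 (SE 0.31) did not pass the threshold (edgeR adjusted p = 0.152, 0.0617% of genes rose). Without 0 hr replicate 2 it was 1.47 and passed (adjusted p = 0.0492). The 1 hr mice at 19.9 and 1 of those at 18.1 CPM shared a sequencing run with both 0 hr libraries used here. The others came from a run whose only 0 hr library, a second one of 1 of these 0 hr mice, was not in this fit. Blood markers summed to 283 to 366 CPM in these 0 hr mice and to 381 to 1222 CPM at 1 hr, and Schwann cell markers to 10.5 to 10.8 and 3.02 to 9.83 CPM, and their part was not tested.

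Over the 4 times, Egr2 changed in the NAc after acute cocaine (edgeR adjusted p = 5.8e-08, 0.185% of genes) and challenge (adjusted p = 0.00893, 0.0925% of genes). After repeated cocaine the test gave adjusted p = 0.130 (0.0463% of genes).

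In the LCtx, the mean level at 1 hr was 2.29 to 3.51-fold that at 0 hr, and of the 3 experiences the difference passed the threshold after repeated cocaine. Naive mice had 6.73, 9.35 and 11.1 CPM and acute mice 20.3 and 21.1 CPM at 1 hr. The log2 fold change of 1.20 (SE 0.32) did not pass the threshold (edgeR adjusted p = 0.0793, 0.327% of genes rose). Blood markers summed to 8936 to 12411 CPM at 0 hr and 8176 to 8811 CPM at 1 hr in these mice, far above their median of 548 CPM over all LCtx samples. Choroid plexus markers summed to 1.81 to 3.65 and 3.94 to 5.03 CPM. The part of these markers was not tested.

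Repeated mice had 5.60 and 7.66 CPM at 0 hr and 20.4 and 26.2 CPM at 1 hr in the LCtx. The log2 fold change was 1.80 (SE 0.38, edgeR adjusted p = 0.0448), the third largest of 7 genes that rose (0.0521% of genes). The call was lost when any of the 4 mice was left out, with values of 1.61 and 2.05 without 0 hr replicates 1 and 2, and 1.95 and 1.59 without 1 hr replicates 1 and 2 (adjusted p 0.111 to 1.0). Markers of 4 lists did not overlap between these times, of which endothelium (207 to 238 CPM at 0 hr, 160 to 185 CPM at 1 hr) and striatal neurons (721 to 827 and 664 to 708 CPM) were the most abundant. Schwann cell and T cell markers were at most 16.1 CPM. Their part was not tested.

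Challenge mice had 9.90 and 12.7 CPM at 0 hr and 17.4, 28.1, 41.5 and 41.9 CPM at 1 hr in the LCtx. These values divide by sequencing run, with 9.90 CPM at 0 hr and 41.5 and 41.9 CPM at 1 hr in 1 run, and 12.7 CPM and then 17.4 and 28.1 CPM in the other. On the log2 scale the difference was 1.56 (SE 0.33, edgeR adjusted p = 0.0574, 0.0297% of genes rose). It passed with run and cohort as covariates (1.55, adjusted p = 0.0312), and without 1 hr replicate 2 (1.62, adjusted p = 0.0442) or replicate 4 (1.75, adjusted p = 0.00637). The test over the 4 times was passed by repeated cocaine (edgeR adjusted p = 0.0231, 0.0967% of genes) and challenge (adjusted p = 0.000300, 0.0744%), and not by acute cocaine (adjusted p = 0.336, 0.297%).

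In the Amy, the 1 hr mice lay above the 0 hr mice of their experience, and no fold change passed the threshold in the main analysis. The 0 hr and 1 hr mice had 2.36 and 5.15 against 10.8 and 14.5 CPM after acute cocaine. They had 0.911 and 1.51 against 3.48 and 9.12 CPM after repeated cocaine. After challenge they had 3.22, 3.24 and 4.09 against 5.81, 10.8, 10.97 and 15.1 CPM. Of these challenge mice, those at 3.22 and 3.24 and then 10.8 and 15.1 CPM were sequenced in 1 run, and those at 4.09 and then 5.81 and 10.97 CPM in another. Behind these values stood 3 to 135 Egr2 counts per mouse.

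The log2 fold changes in the Amy were 1.73 (SE 0.50, edgeR adjusted p = 0.715, 0.0155% of genes rose), 2.32 (SE 0.70, adjusted p = 0.611, 0.0233%) and 1.70 (SE 0.39, adjusted p = 0.0795, 0.0931%) in this order. After challenge the value passed without 1 hr replicate 2 (1.86, adjusted p = 0.0287) and with run and cohort as covariates (1.72, adjusted p = 0.0315). The value after repeated cocaine was 1.19 when every library was thinned to the smallest total (adjusted p = 1.0). The edgeR tests over time gave adjusted p = 0.0600, 0.807 and 0.147, with 0.0853%, 0.0233% and 0.109% of genes changed. The acute one passed in the fit with those covariates (adjusted p = 0.0222). All acute Amy mice shared the same run and cohort, so nothing was adjusted among them and only the shared spread changed. Of 9 marker lists, 4 overlapped between 0 and 1 hr in acute mice, 7 in repeated mice and 9 in challenge mice. In acute mice the lists apart from 0 to 1 hr were striatal neurons (1515 to 1809 against 1900 to 1964 CPM), lateral hypothalamus (917 to 1081 against 898 to 906 CPM), endothelium (111 to 130 against 103 to 109 CPM), Schwann cells (10.01 to 12.1 against 4.90 to 7.50 CPM) and T cells (2.57 to 3.54 against 6.09 to 8.40 CPM). In repeated mice they were cortical neurons (923 to 1063 against 1172 to 1182 CPM) and endothelium (199 to 229 against 139 to 157 CPM). Their part was not tested.

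In the LH, Egr2 was near the limit of detection, with 1 to 16 counts and 0.227 to 2.65 CPM per mouse. It did not pass the filter on low counts in the LH fit, so its change there has no main test. Acute mice had 1.42 and 2.65 CPM at 0 hr and 0.547 and 1.75 CPM at 1 hr. Repeated mice had 0.318 and 0.420 CPM and then 0.666 and 1.74 CPM. The single abstinent mouse had 0.643 CPM and the challenge mice 0.415 and 2.63 CPM. A change was not detectable at this depth. Without the filter, edgeR gave log2 fold changes of -0.86 (SE 0.96), 1.63 (SE 1.32) and 1.27 (SE 1.11), each with an adjusted p of 1.0. Of 9 marker lists, 1 overlapped between 0 and 1 hr in acute mice, 7 in repeated mice and 6 in challenge mice, and their part was not tested.

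**Figure D3:**
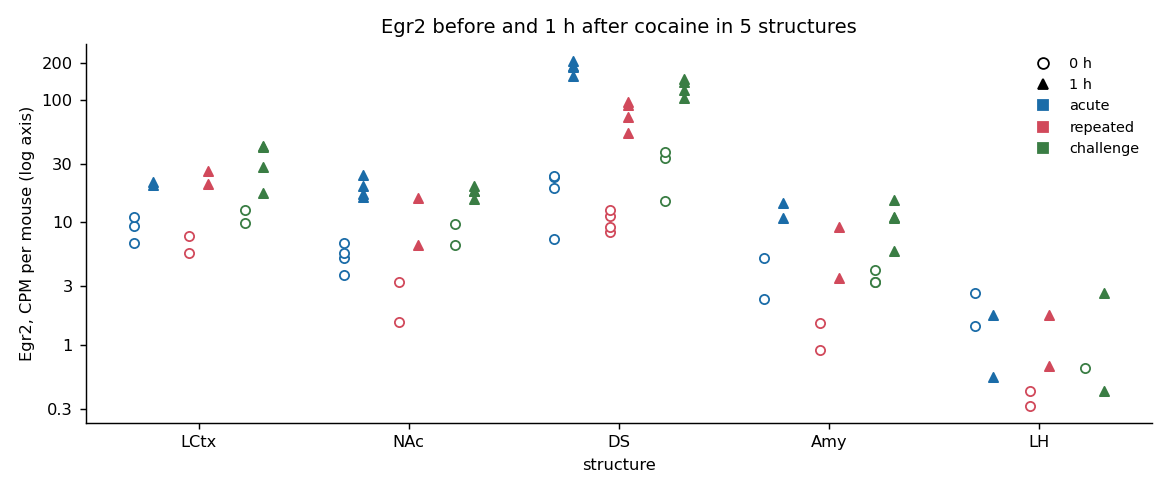
Egr2 per mouse (CPM, log axis) at 0 hr (open circles) and 1 hr (filled triangles) in the 5 structures, coloured by experience. The 1 hr mice lie at 53.3 to 207 CPM in the DS, against 7.33 to 37.6 CPM at 0 hr, and the LH mice lie at 0.318 to 2.65 CPM at 0 hr.

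**Figure D4:**
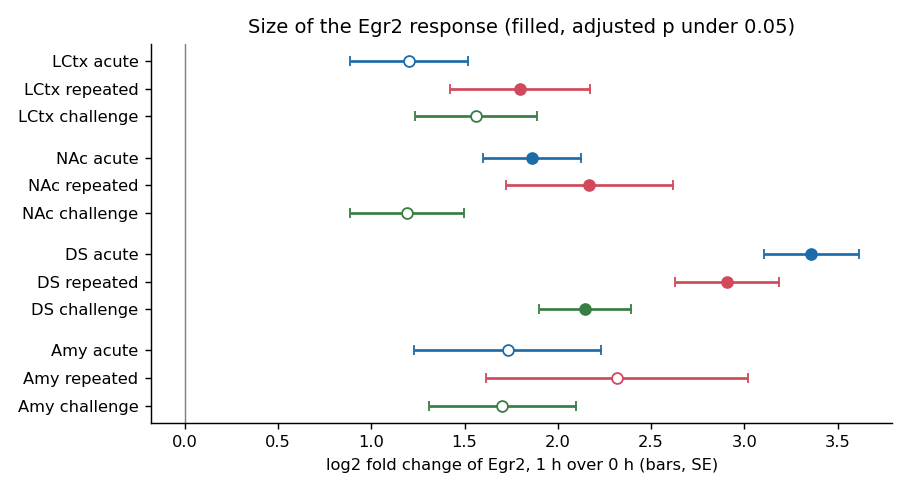
Log2 fold change of Egr2 from 0 to 1 hr (x, points with SE bars) in 4 structures and 3 experiences (y). Filled points passed an edgeR adjusted p under 0.05. The DS points lie at 2.14 to 3.36 and the others at 1.19 to 2.32.

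The rise in the DS was tested against the rise in each other structure as the mean over the 3 experiences. It exceeded that in the LCtx by 1.28 on the log2 scale (SE 0.29, edgeR adjusted p = 0.00774, 0.406% of genes differed). Over 5 alternatives this difference was 1.28 to 2.16 with an adjusted p of 0.00239 to 0.0175. The differences from the other structures did not pass the threshold. They were 1.06 for the NAc (SE 0.34, adjusted p = 0.360, 0.231% of genes), 0.88 for the Amy (SE 0.44, adjusted p = 1.0, 0.238%) and 2.14 for the LH (SE 0.99, adjusted p = 0.918, 0.196%). Egr2 passed the filter in this model of all structures, and its LH values rest on few counts. The structures of 1 mouse are not independent. With the mouse as a random effect in limma voom, the DS exceeded the LCtx by 1.34 (adjusted p = 0.0105). That model used 1 correlation between structures of a mouse for all genes, which was 0.0578 and is not a value of Egr2.

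Ordered by mean level, the 1 hr groups began with the 3 DS groups, whose ranges did not overlap each other or the next group. The LCtx groups followed at 32.2, 23.3 and 20.7 CPM (challenge, repeated, acute), then the acute and challenge NAc at 19.4 and 17.9 CPM, and each of these overlapped its neighbour. The acute Amy (12.6 CPM), repeated NAc (11.2 CPM), challenge Amy (10.7 CPM) and repeated Amy (6.30 CPM) formed another run of overlapping groups below them. The LH groups were lowest, at 1.15 to 1.52 CPM. At 0 hr the order ran from 28.7 CPM in the abstinent DS to 0.369 CPM in the LH of repeated mice, and neighbours overlapped throughout the first 13 of 15 groups.

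Baselines were compared between experiences in the 0 hr mice that the study marked for that use, and in the NAc and Amy also in further abstinent mice without that mark. No Egr2 difference passed the threshold. In repeated mice the level was below naive mice by log2 values of -0.40 (LCtx), -1.30 (NAc), -0.97 (DS) and -1.61 (Amy) (edgeR adjusted p 0.364 to 0.893), where 1.39%, 0.0817%, 1.36% and 0.260% of genes differed. In abstinent mice the differences were 0.51, 0.46, 0.64 and -0.06 (adjusted p 0.490 to 0.965), where 8.36%, 2.81%, 2.57% and 3.47% of genes differed. In the LCtx and NAc, and for abstinent mice in the Amy, experiences came from separate runs, and the part of the run cannot be told apart.

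Pooled over groups, the SD of Egr2 between mice of 1 group on the log2 scale was 0.50 in the DS, where counting alone would give 0.17. Second libraries of the same DS samples differed by a median of 0.35 in the size of the log2 ratio, where the median standard error of counting was 0.26. This is a difference between 2 libraries and cannot be set directly against an SD. The spread between mice can hold differences between libraries too. Elsewhere it was 0.49 (LCtx, counting 0.25), 0.45 (NAc, 0.33), 0.79 (Amy, 0.42) and 1.07 (LH, 0.93). Within the DS the spread was 0.64 at 0 hr, 0.27 at 1 hr, 0.57 at 2 hr and 0.45 at 4 hr, against counting errors of 0.22, 0.07, 0.15 and 0.19. The coefficient of variation in the DS ran from 11.3% at 1 hr of acute cocaine to 43.6% at 4 hr.

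Whether a mouse with a high Egr2 level in 1 structure also had a high level in another was asked on deviations from the group mean. Of 10 pairs of structures, none passed after adjustment for 10 tests. The DS and the NAc had r = 0.29 and rho = 0.22 over 36 mice (permutation p = 0.336 and 0.366, adjusted 0.841 and 0.874; r = 0.08 without the 2 mice farthest from the median). The Amy and the LH had r = 0.81 and rho = 0.79 over 22 mice (permutation p = 0.0189 and 0.0243, adjusted 0.189 and 0.243; r = 0.75 without those 2 mice), where the LH values rest on few counts. These 22 mice form 11 groups of 2, so that the deviations of a group are equal and opposite and 11 values are independent. In challenge mice at 1 and 4 hr, the mouse that was higher in both structures came from 1 run and the lower mouse from another, and the part of the run was not tested.

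The time course of Egr2 in the DS was most like those of Nr4a1, Per1 and Slc25a25. Likeness was the Pearson r of log2 levels, after the mean of each experience was removed, over 48 mice and 12917 other genes, which share libraries and depth. The 8 closest were Nr4a1 (an orphan nuclear receptor, 0.953), Per1 (a clock gene, 0.951), Slc25a25 (a mitochondrial carrier, 0.949), Egr4 (0.947), Tiparp (an ADP-ribosyltransferase, 0.941), Junb (an AP-1 subunit, 0.923), Egr1 (0.916) and Fosl2 (an AP-1 subunit, 0.903). Over the 36 mice of the NAc the same genes had r of 0.839, 0.801, 0.488, 0.843, 0.885, 0.904, 0.772 and 0.757. Slc25a25 stood lowest there. Per1, Slc25a25 and Tiparp are in none of the gene lists used here. Genes of the EGR list that lay further from Egr2 in the DS were Nab2 (0.726), Egr3 (0.262) and Nab1 (0.180).

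Among its relatives, Egr2 had the largest fold change in the DS in all 3 experiences. Egr4 went from 54.4 to 80.0 CPM in naive mice to 331 to 406 CPM at 1 hr of acute cocaine. Its log2 fold changes were 2.46 (SE 0.19, edgeR adjusted p = 3.59e-15), 2.01 and 1.97 for acute, repeated and challenge. Egr1, the most used marker of the family in brain, went from 274 to 432 CPM to 913 to 1037 CPM after acute cocaine, and its fold changes were 1.46, 0.99 and 0.87 (edgeR adjusted p at most 0.00528). Egr3 rose after acute cocaine (0.79, adjusted p = 5.15e-06) and had 0.22 and 0.20 after repeated cocaine and challenge (adjusted p = 0.90 and 0.999). Nab2 rose after acute cocaine (0.79, adjusted p = 3.17e-06) and challenge (0.50, adjusted p = 0.0412) and had 0.20 after repeated cocaine (adjusted p = 0.924). Nab1 did not pass in any experience (0.27, 0.27 and -0.02).

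Egr3 had another course in the DS. Its acute mean was 411 CPM at 1 hr, 391 CPM at 2 hr and 464 CPM at 4 hr, from 237 CPM at 0 hr, while Egr1 had returned to 347 CPM by 4 hr from 351 CPM at 0 hr. Egr4 was at 71.4 CPM at 4 hr, from 68.1 CPM at 0 hr.

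**Figure D5:**
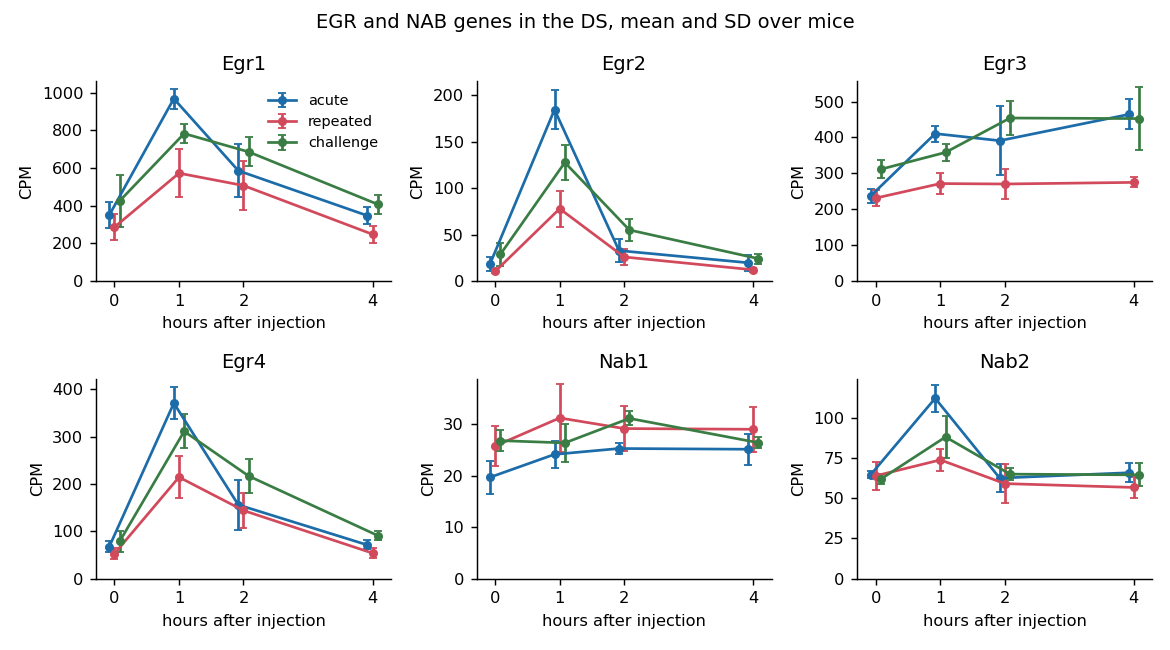
Egr1, Egr2, Egr3, Egr4, Nab1 and Nab2 in the DS (CPM, each panel with its own axis) against hours after injection, as the mean and SD over mice for each experience. Egr1, Egr2 and Egr4 peak at 1 hr in every experience, and Egr3 after acute cocaine stays between 391 and 464 CPM from 1 to 4 hr.

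Of the 5 relatives tested in the DS at 1 hr, 4 rose after acute cocaine, 2 after repeated cocaine and 3 after challenge, and none fell. Of all genes tested, 0.697%, 0.240% and 0.348% rose in these comparisons. Their median log2 fold changes were 0.79, 0.27 and 0.50, against -0.01, -0.01 and 0.00 over all genes tested. Of 10 activity-regulated genes (such as Fos, Arc and Npas4), 7 rose in each experience, beside the same shares of all genes, with medians of 2.13, 1.98 and 2.01. Fos, the AP-1 gene most used to mark active neurons, changed by 2.11, 3.06 and 2.25, and Arc, a regulator of AMPA receptor traffic, by 2.16, 2.37 and 1.67 (edgeR adjusted p at most 0.000558). Npas4, a neuronal activity-dependent factor, did not pass (0.30, 1.26 and 1.08, adjusted p 0.158 to 0.903).

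Of 15 genes of the MAP kinase, SRF and CREB route that leads to the EGR genes, 3 rose in each experience, where 0.697%, 0.240% and 0.348% of all genes did, with medians of 0.08, 0.01 and 0.07. They were Dusp1 (1.22, 1.76 and 1.27), Dusp5 (1.33, 1.58 and 1.13) and Dusp6 (1.06, 0.77 and 0.78), phosphatases that switch off MAP kinases (edgeR adjusted p at most 0.0140). The kinases, Srf, Creb1 and the other members did not pass. Of 6 myelin genes that Egr2 controls in Schwann cells, 5 were tested in the DS and none rose or fell at 1 hr, with medians of 0.17, 0.06 and 0.02. After acute cocaine the log2 fold change was -0.02 (SE 0.14) for Pmp22 and 0.17 (SE 0.10) for Mbp, with edgeR adjusted p of 0.991 and 0.654. Pmp2, a Schwann cell marker, was at 0 counts in every structure.

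Fewer relatives rose at 1 hr in the NAc, LCtx and Amy. In the NAc 2 of 5 rose after acute cocaine (0.10% of all genes tested) and 1 after repeated cocaine (0.0540%) and after challenge (0.0617%). In the LCtx none rose after acute cocaine (0.327% of all genes), 1 after repeated cocaine (0.0521%) and 1 after challenge (0.0297%). In the Amy none did in any experience, where 0.0155%, 0.0233% and 0.0931% of all genes rose. No test compared these counts between structures.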

How the data were processed

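RNA was extracted with Trizol from structures dissected out of coronal slices, and 3′ libraries were made with barcoded primers that carry unique molecular identifiers (UMIs). The authors collapsed reads by UMI, trimmed polyA tails, used STAR for alignment to GRCm38 and HTSeq for counting. The deposited counts are whole numbers per gene and are not normalized. Versions, annotation and the strand setting of the counting are not given in the sources used here. Per the methods, libraries with too few counts were removed and the deepest ones were down-sampled. Whether the deposited counts are from before or after that step is not given in the sources used here.

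Egr2, the gene lists and the alternatives were chosen with earlier results of these data known. Induction used the 143 libraries that the study marked for it and all LH libraries, and baselines used 0 hr mice of the 118 libraries marked for them, with other abstinent mice added in the NAc and Amy. Libraries of 1 sample were summed. Replicates are different mice. Models were fitted per structure in R 4.3.3 with edgeR 4.0.16 (filterByExpr with a minimum of 10 counts, TMM, quasi-likelihood F tests), with Benjamini-Hochberg adjustment over all genes tested and a threshold of 0.05. Differences between structures used 1 model of all structures. DESeq2 1.42.0, limma 3.58.1 voom, RLE scaling, no filter, a replicate block, run and cohort covariates, thinning, other choices of libraries and leaving out each mouse were alternatives. Correlations between structures used log2(CPM + 1), or + 0.1 as an alternative, and 100000 permutations within groups, two-sided. Summaries were made in Python 3.11.15.

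Replicate numbers come from the labels. Deviations of same-numbered mice at 0 and 1 hr correlated over 0.1 in every pair only for repeated cocaine in the DS (0.120 to 0.204 over 4 pairs). There the numbers follow cohorts at 0 and 1 hr but not at 2 hr. The blocked value is given there where it changed a call, which was for 2 hr over 0 hr, so that this block mixes cohorts. The genes named are Egr2, the members of the lists that results turn on, and the 8 genes most like Egr2 in the DS. On simulated data for the acute DS comparison at 1 hr (12783 genes), edgeR recovered 78 of 99 genes changed 2-fold and 100 of 100 changed 10-fold, with 7 false calls among 12584 unchanged genes. Coordinates of genes were read from GENCODE release M21. The values of 1 listed gene are not reported here.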

Additional observations from a re-analysis of the deposited data

Results flagged for a closer look

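The 1 hr rise of Egr2, averaged over the experiences, was larger in the DS than in the LCtx by 1.28 on the log2 scale, and it was singled out because the difference between the structures itself passed the edgeR test (adjusted p = 0.00774). All 1 hr mice lay above the 0 hr mice of their experience in both structures. No sequencing run held both structures, so the run and the structure cannot be told apart. Egr2 was also looked at for a mouse standing apart from its group in 21 groups of 4 or more mice, and none did, where chance gives about 1 in 20.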

How the results depend on the processing

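The rise of Egr2 in the DS at 1 hr passed the threshold in all 3 experiences under each of 10 alternatives and without any single mouse (3.08 to 3.54, 2.79 to 3.05 and 1.83 to 2.37 without 1 mouse), as did the acute rise in the NAc under 9. In the LH, with 1 to 16 Egr2 counts per mouse, a change was not detectable at this depth.

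Without the filter on low counts these values passed: 1.74, 2.32 and 1.71 in the Amy (acute, repeated, challenge), 1.21 and 1.55 in the LCtx (acute, challenge), 1.19 in the NAc (challenge), 0.90, 1.32 and 0.95 in the DS at 2 hr over 0 hr, and -1.22 for challenge minus acute in the DS, with adjusted p over time of 6.66e-07, 0.0438 and 3.86e-05 (Amy), 0.00907 (acute LCtx) and 0.00452 (repeated NAc). More genes were then tested, and the fold changes were nearly those of the main fit. In the challenge NAc, 1.19 (SE 0.31) in the main fit and 1.19 (SE 0.30) without the filter had unadjusted edgeR p of 0.000340 and 8.97e-05. In the acute Amy the SE was 0.50 and 0.39. The added calls thus follow how each fit estimates the spread, and do not rest on a larger change of Egr2.

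With the replicate number as a block, 1.78 (challenge Amy), 1.51 (repeated DS at 2 hr over 0 hr) and 1.80 (challenge LCtx) passed, 2.16 (repeated NAc) no longer did, the abstinent Amy baseline turned to 0.011, and the tests over time in the Amy gave 0.00402 (acute) and 0.0279 (challenge). The block changed no other call. With run and cohort as covariates, 1.72 (challenge Amy), 1.33 (repeated DS at 2 hr), 1.20 and 1.55 (acute and challenge LCtx) and acute Amy over time (0.0222) passed. Run and cohort did not vary among the acute mice of the LCtx or of the Amy. For these acute values the covariates adjusted nothing and only the shared spread changed.

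DESeq2 called 1.32 for the repeated DS at 2 hr, and not -1.21 for the challenge DS from 1 to 2 hr nor 1.80 for the repeated LCtx. With all libraries summed, 1.30 (repeated DS at 2 hr) and 1.51 (challenge LCtx) passed. With each experience alone, 1.32 and 0.95 (DS at 2 hr, repeated and challenge) and acute Amy over time (0.0337) passed and 2.17 (repeated NAc) did not. Thinned to the smallest library, 2.00 (repeated LCtx), 2.88 (repeated NAc), and the tests over time of the repeated LCtx (0.556) and challenge NAc (0.149) no longer passed, and the acute DS at 4 hr turned to -0.13, while the rise in the repeated Amy was 1.19. In the DS run with all 3 experiences, the repeated DS at 4 hr turned to -0.027 and -1.20 (challenge, 1 to 2 hr) did not pass. With acute mice only, the DS exceeded the LH by 4.26 (edgeR adjusted p = 0.0480), where the LH values rest on few counts. Correlations turned to 0.00227 (DS and Amy) and 0.0148 (DS and LH) with a pseudocount of 0.1, and to -0.83 (LCtx and DS) at 1 hr only. The cause was not tested.

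Leaving out 1 mouse gave 1.44 to 1.86 (challenge Amy), -0.51 to 0.60 (abstinent Amy baseline, turned without acute replicate 1 or challenge replicate 3), 0.60 to 1.10 and -0.18 to 0.31 (acute DS at 2 and 4 hr, the latter turned without 0 hr replicate 1 or 4 hr replicate 2), 1.22 to 1.51 (repeated DS at 2 hr), -0.028 to 1.17 (abstinent DS baseline, turned without challenge replicate 2), 1.59 to 2.05 and 1.37 to 1.75 (repeated and challenge LCtx), and 1.41 to 2.80 and 0.90 to 1.47 (repeated and challenge NAc). Of values that passed in no such fit, the rise in the Amy was 1.29 to 2.40 (acute) and 1.49 to 2.87 (repeated), and the repeated baseline was -2.06 to -0.95 (Amy), -1.94 to -0.88 (NAc), -1.38 to -0.44 (DS) and -0.74 to -0.0056 (LCtx). The abstinent baseline was 0.17 to 0.90 (LCtx) and 0.29 to 0.70 (NAc), and the challenge DS at 4 hr was -0.63 to -0.09, and -0.91 to -0.26 over the other alternatives.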
